A study of Mus musculus with 36 samples.

Results

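The Rtl1-region miRNA hairpins are 10 precursors that lie in a row on mouse chromosome 12, in the Meg3 to Rtl1 stretch of the imprinted Dlk1-Dio3 interval. They were chosen by hairpin name: mmu-mir-673, mmu-mir-493, mmu-mir-337, mmu-mir-540 and mmu-mir-665, which lie between Meg3 and Rtl1, and mmu-mir-431, mmu-mir-433, mmu-mir-127, mmu-mir-434 and mmu-mir-136, which lie opposite the Rtl1 coding sequence. Their 20 mature rows were taken from a table of 2061 rows that held 1915 mature miRNAs of 1193 hairpins. Of the 20, 19 reached 10 counts in at least 3 libraries, as did 775 of all mature miRNAs. miR-665-5p did not, with 21 reads over all libraries. In a library with no read, a floor of 3 counts equals 0.0562 to 0.391 CPM (counts scaled to a common library size), and such floors cover counting error only.

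Small RNA was sequenced from whole kidneys of C57BL/6 mice in 2 models of polycystic kidney disease, one with floxed Pkd1 and one with floxed Pkd2. Mice called WT were Pkd1f/f or Pkd2f/f without the transgene, and mice called KO were Pkd1f/f:HoxB7-Cre or Pkd2f/f:HoxB7-Cre, so both genotypes of a model carried the floxed alleles. Ages were P1, P3 and P7 (postnatal days), with 3 libraries in each of 12 groups and 36 in all. HoxB7-Cre acts in the collecting duct lineage, so the other cells of these kidneys kept the gene. Pkd1 and Pkd2 mRNA are not in a miRNA table, so the genotype labels were not checked against the deleted gene. No label says how many animals gave each library, and p-values measure the spread between these libraries. Because whole kidneys were sequenced, fewer cells of a type and less RNA per cell cannot be told apart.

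The Dlk1-Dio3 interval is imprinted: its noncoding RNAs and miRNAs are made from the maternal chromosome, while protein-coding genes such as Dlk1 and Rtl1 are made from the paternal one. Meg3 is a maternal long noncoding RNA, and further along the interval the maternal strand runs antisense to Rtl1, a gene derived from a retrotransposon and needed for placental and fetal development. Hairpins within that antisense RNA give miRNAs that pair fully with the Rtl1 mRNA and can direct its cleavage. miRNAs of the interval are abundant in embryonic, fetal, muscle and neural tissue and decline after birth in many organs.

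In GRCm38.p6 the 10 hairpins span 23.4 kb of the plus strand, from chr12:109571990-109572080 (Mir673) to chr12:109595327-109595388 (Mir136). Meg3 ends upstream at 109571726 on the same strand, and Rtl1 lies on the minus strand at chr12:109589193-109600330. In GENCODE M21 the last 5 hairpins fall in the coding exon of Rtl1 and the first 5 fall outside it. Mir337 overlaps Mir3544 and Mir136 overlaps Mir3071, both annotated on the minus strand. All 20 mature sequences were found in RefSeq, and they held 20 different seeds, so no pair of them shares a seed.

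The sequences shown are those on which the results turn: the most abundant member (miR-127-3p), the members with the lowest adjusted p in the Pkd2 comparisons, and both arms of mir-136. They are written 5′ to 3′ with the seed, bases 2 to 8, in capitals.
miR-127-3p: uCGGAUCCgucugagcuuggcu
miR-127-5p: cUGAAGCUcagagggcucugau
miR-540-3p: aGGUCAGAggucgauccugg
miR-665-3p: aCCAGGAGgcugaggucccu
miR-337-3p: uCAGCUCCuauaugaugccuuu
miR-673-3p: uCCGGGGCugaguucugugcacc
miR-136-5p: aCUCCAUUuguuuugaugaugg
miR-136-3p: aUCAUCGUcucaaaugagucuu
The reverse complement of a mature sequence was present in the 6358-nt Rtl1 transcript for 10 members, which are both arms of the 5 hairpins within the coding exon. It was present for no member of the other 5 hairpins. The sites of the dominant arms of mir-127 and mir-136 are shown to make this pairing visible, in the sense of the Rtl1 mRNA and with the bases opposite the seed in capitals.
Rtl1 site of miR-127-3p, from transcript position 2642: agccaagctcagacGGATCCGa
Rtl1 site of miR-136-3p, from transcript position 164: aagactcatttgagACGATGAt
Of the 20 seeds, 2 occur in a miRNA outside the hairpins: the seed of miR-540-3p in miR-6915-5p, and that of miR-673-5p in miR-6985-3p.

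The libraries held between 12569939 and 32663566 counted reads (median 24008082). Kidney tubule miRNAs, the label check for tissue, were present in every library: all 8 of that list passed the count minimum, and their summed level ran from 36171 to 106180 CPM. A set of 6 libraries stood apart from the others of their group in miRNAs of another tissue, by a rule chosen after seeing the data: at least 100 CPM of library total in a list and more than 3 times the highest other library. In Pkd1 P1 WT replicate 1 the muscle list was 45.9 times and the endocrine list 7.57 times the next library, and in Pkd2 P1 WT replicate 3 the liver list was 29.3 times. In Pkd2 P1 KO replicate 3 the muscle list was 7.46 times the next library. The endocrine list was 4.84 times in Pkd1 P1 KO replicate 1, 4.59 times in Pkd1 P3 KO replicate 3 and 4.02 times in Pkd2 P1 KO replicate 1. These ratios use reads scaled by library totals. With TMM factors, the scaling used for the levels that follow, 5 of the 6 libraries passed the same rule, while the endocrine list of Pkd1 P3 KO replicate 3 was 1.55 times that of replicate 2, at 423 against 273 CPM. Replicate 2 stays in the fit without the libraries that stood apart. A count of calls or a median is given with and without these libraries for each comparison in which they enter the contrast.

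Members took 0.122% of the reads in the library with the least (Pkd2 P7 WT replicate 1; 95% Wilson interval 0.120% to 0.123%) and 2.65% in the one with the most (Pkd1 P1 WT replicate 1; 2.64% to 2.65%), with a median of 0.483%. The hairpins opposite Rtl1 held nearly all of these reads: those between Meg3 and Rtl1 gave 0.873% to 2.51% of the members' summed CPM in a library. miR-127-3p alone gave 62.3% to 80.3% of member reads. miR-10a-5p and miR-10b-5p took 31.4% to 81.0% of all reads in a library, so shares of all reads move with them. Of the reads outside them, members took 0.362% in Pkd2 P7 WT replicate 1 and 7.15% in Pkd1 P1 WT replicate 1, again the least and the most.

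Levels are given in CPM scaled by edgeR's trimmed mean of M values (TMM), within a model. They are reads per miRNA, and how well each sequence is captured was not measured. By median level over the 36 libraries, miR-127-3p led with 2962 CPM, followed by miR-434-3p (533), miR-434-5p (155), miR-136-3p (154), miR-136-5p (59.3) and miR-431-5p (51.7). A middle tier held miR-127-5p (25.3), miR-337-5p (21.2), miR-673-5p (18), miR-540-3p (12) and miR-433-3p (9.28). The lowest held miR-673-3p (3.19), miR-337-3p (3.04), miR-431-3p (2.46), miR-665-3p (2.37), miR-493-5p (1.44), miR-540-5p (1.21), miR-433-5p (1.02) and miR-493-3p (0.294).

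The order was firm only between some neighbours. miR-127-3p exceeded miR-434-3p in 36 of 36 libraries, and miR-434-3p exceeded miR-434-5p in 36. In contrast, miR-434-5p was above miR-136-3p in 13 of 36 libraries, miR-136-5p above miR-431-5p in 18, miR-540-3p above miR-433-3p in 21, miR-673-3p above miR-337-3p in 19, miR-431-3p above miR-665-3p in 20, and miR-540-5p above miR-433-5p in 17. These neighbours do not differ beyond their spread over libraries.

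**Figure D1:**
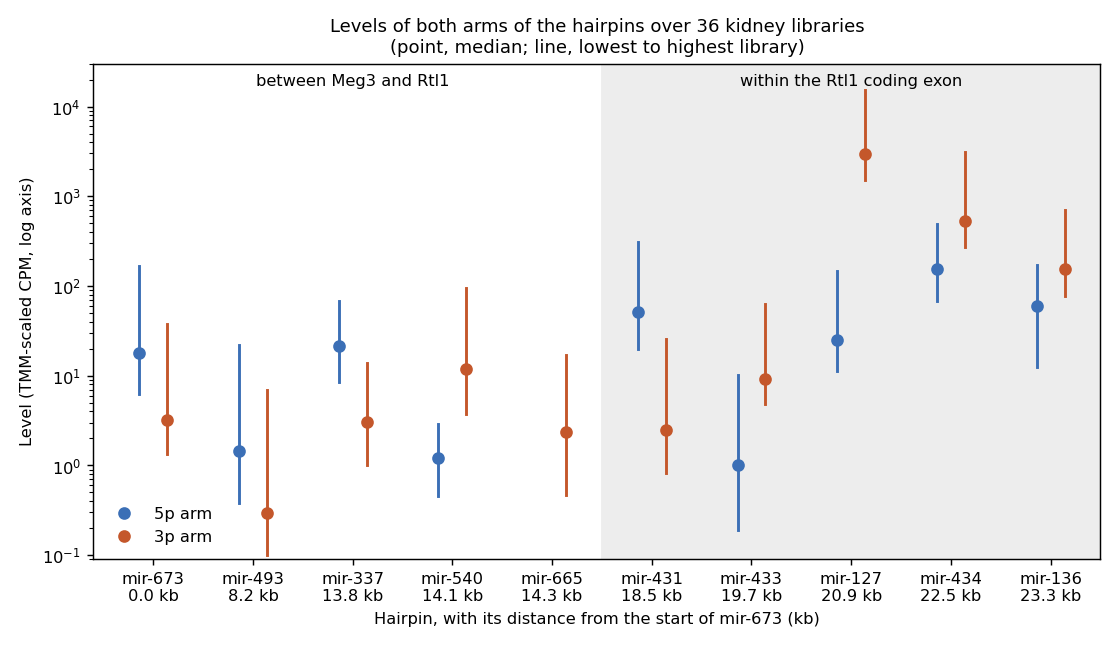
Level of each arm (5p blue, 3p orange) of the 10 hairpins in TMM-scaled CPM on a log axis, in chromosomal order with the distance from the start of mir-673. Points are medians over 36 libraries and lines run from the lowest to the highest library, with a lowest value of 0 for miR-493-3p drawn at 0.1; miR-127-3p stands highest, and miR-665-5p is left out.

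With age, members fell in WT kidneys of the Pkd2 model. Between P1 and P7, 15 of 19 were lower at an adjusted p under 0.05 (edgeR quasi-likelihood F-test, Benjamini-Hochberg over all miRNAs tested), beside 16.9% of 746 miRNAs called lower. None was called higher, and the 19 log2 fold changes ran from -3.21 to -0.88 with a median of -1.79, beside -0.06 for all miRNAs. In 18 of 19 members the 3 P7 libraries were all below the 3 P1 libraries, beside 27.7% of all miRNAs.

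miR-540-3p, the dominant arm of mir-540, stood at 15.1, 16.1 and 26.1 CPM in Pkd2 P1 WT, at 10.9, 9.05 and 10.5 at P3, and at 3.79, 4.13 and 4.82 at P7. The 3 ages did not overlap, and P7 was lowest. Its log2 fold change from P1 to P7 was -2.16 ± 0.27 (SE; edgeR adjusted p = 7.12e-05). miR-665-3p stood at 3.45, 3.20 and 10.9 CPM at P1 and at 0.464, 0.808 and 0.586 at P7 (log2 fold change -3.21 ± 0.50, edgeR adjusted p = 0.000331). Its P7 values rest on only 6, 17 and 13 reads. The P1 value of replicate 3, the library with a high liver list, was the outlying one of the 3.

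The next members by adjusted p were a second arm each of mir-673 and mir-337. miR-673-3p was 4.68, 3.74 and 6.84 CPM at P1 and 1.55, 1.38 and 1.35 at P7 (-1.84 ± 0.31, edgeR adjusted p = 0.000484). miR-337-3p was 3.98, 3.92 and 8.51 CPM at P1 and 1.39, 1.57 and 1.76 at P7 (-1.79 ± 0.32, edgeR adjusted p = 0.000774). Both sets of values were separate between ages. The abundant miR-127-3p fell as well, from 4177, 3586 and 8812 CPM to 1536, 1928 and 2435 (-1.49 ± 0.42, edgeR adjusted p = 0.0148). The 4 members that were not called were miR-136-5p, miR-493-5p, miR-493-3p and miR-540-5p.

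Some lists for kidney and other tissues also differed between these ages, while others overlapped. The kidney tubule list summed to 58293, 56791 and 51883 CPM in Pkd2 P1 WT and to 101155, 101118 and 106180 at P7. The vascular list summed to 47095, 40436 and 46186 CPM at P1 and to 54239, 75380 and 85730 at P7. Both were higher in every P7 library than in any P1 library. The muscle list was at 58.2, 22.6 and 56.6 CPM at P1 and at 24.1, 22.5 and 25.4 at P7, with overlap. The liver list was at 13.9, 11.9 and 360 and at 3.64, 2.47 and 1.22. The mesenchymal list ran from 6486 to 6755 CPM at P1 and from 6898 to 8067 at P7. The remaining lists overlapped. The leukocyte list ran from 348 to 449 and from 432 to 539. The endocrine list ran from 36.9 to 108 and from 83.5 to 130. The erythroid list ran from 2627 to 3551 and from 2661 to 3316. The neural list ran from 273 to 308 and from 278 to 336. In Pkd1 WT the tubule list ran from 38907 to 56501 CPM at P1 and from 72868 to 86459 at P7. Their part in the age comparisons was not tested.

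Without the libraries that stood apart, 11 of 19 members were called lower and the median was -1.26, beside -0.06 for all miRNAs. The share of all miRNAs called in that fit is not given here. miR-540-3p then had a log2 fold change of -1.91 ± 0.25 (edgeR adjusted p = 0.000637) and miR-665-3p one of -2.43 ± 0.37 (edgeR adjusted p = 0.000939). Over the intermediate step from P1 to P3 edgeR called 0 members (0.268% of all miRNAs), 10 had an unadjusted p under 0.05 (14.2%) and DESeq2 called 1. All 19 values were below 0 (median -0.82, or -0.30 without the libraries that stood apart), and in 8 the groups did not overlap (10.2% of all miRNAs). The lowest p values were those of miR-540-3p (-0.91 ± 0.26, edgeR adjusted p = 0.163) and miR-337-3p (-0.97 ± 0.30, edgeR adjusted p = 0.184). From P3 to P7, 2 members were called lower, miR-540-3p (-1.25 ± 0.27, edgeR adjusted p = 0.0151) and miR-665-3p (-1.89 ± 0.50, edgeR adjusted p = 0.0444), beside 2.68% of all miRNAs, and in 14 the P7 libraries were all lower (17.3% of all miRNAs). Leaving out any of the 3 P3 libraries left 1 call and leaving out any of the 3 P7 libraries left 0, while leaving out the libraries that stood apart gave 4.

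In the Pkd1 model the size of the same change depended on a single P1 library, and the calls depended on several libraries. Between P1 and P7, 9 of 19 members were called lower in WT kidneys, beside 11.2% of 706 miRNAs, with a median log2 fold change of -1.94 (-0.03 for all miRNAs). From P1 to P3, 12 were called lower, beside 10.6%, with a median of -2.06. The lowest adjusted p values there were those of miR-431-3p (-2.80 ± 0.74, edgeR adjusted p = 0.0184), miR-673-3p (-2.74 ± 0.73, edgeR adjusted p = 0.0203), miR-540-3p (-1.86 ± 0.51, edgeR adjusted p = 0.0225) and miR-127-3p (-2.08 ± 0.57, edgeR adjusted p = 0.0225). These 4 were at -1.12, -0.81, -0.85 and -0.66, with edgeR adjusted p from 0.181 to 0.279, in the fit without the libraries that stood apart. Between P3 and P7 edgeR (14.4% of all miRNAs called) and DESeq2 called 0 members, with 0 of 19 at an unadjusted p under 0.05 (28.9%) and a median of 0.02. miR-540-3p had a log2 fold change of -0.94 ± 0.51 there (edgeR adjusted p = 0.250) and miR-127-3p one of 0.72 ± 0.55 (edgeR adjusted p = 0.452).

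Summed over members, the 3 Pkd1 P1 WT libraries held 20633, 3261 and 3068 CPM, the P3 libraries 2519, 2271 and 2365, and the P7 libraries 2871, 3532 and 3650. Replicate 1 stood far above every other library: it held the highest level of 17 of the 19 members, the exceptions being miR-136-5p and miR-540-5p. In it the muscle list summed to 1342 CPM against 44.4 and 15.9 in the other 2, and the endocrine list to 327 against 41.3 and 61.6. All 7 muscle and all 4 endocrine miRNAs passed the count minimum, and miR-133a-3p was at 1045 CPM against 36.6 and 12.9. Without the libraries that stood apart, 0 members were called from P1 to P3 (median -0.59), and 3 were called from P1 to P7, 2 lower and 1 higher (median -0.31). Leaving out single libraries, the P1 to P3 count was 0 without P1 WT replicate 1 or any P3 library. The P1 to P7 count was 2 without P1 WT replicate 1 (1 higher and 1 lower), 2 without P7 WT replicate 3, 3 without P7 WT replicate 1, 4 without P7 WT replicate 2, 15 without P1 WT replicate 2 and 17 without P1 WT replicate 3, with the called members lower in each of these last 5 fits.

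miR-540-3p and miR-665-3p were among those 3. In Pkd1 WT, miR-540-3p was 94.5, 28.7 and 16.5 CPM at P1, 11.1, 17.4 and 10.1 at P3 and 7.42, 7.97 and 4.80 at P7. Every P7 library was below every P1 and P3 library. Its log2 fold change from P1 to P7 was -2.80 ± 0.54 (edgeR adjusted p = 0.00302) and was -1.78 ± 0.42 without the libraries that stood apart (edgeR adjusted p = 0.0208), and it was called in every fit that left out 1 compared library. miR-665-3p was 17.1, 2.72 and 2.93 CPM at P1 and 1.30, 0.747 and 0.960 at P7. Its P7 values rest on only 11, 6 and 20 reads. Its log2 fold change was -2.94 ± 0.68 (edgeR adjusted p = 0.00780) and -1.51 ± 0.44 without those libraries (edgeR adjusted p = 0.0395). miR-665-3p was not called when only P1 WT replicate 1 was left out (edgeR adjusted p = 0.0511) or when only the compared libraries were fitted (edgeR adjusted p = 0.0722).

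The third of the 3 was miR-136-5p, which went the other way. It stood at 149, 12.4 and 25.2 CPM at P1 and at 49.0, 61.5 and 70.2 at P7, so that without replicate 1 every P7 value was higher. Its log2 fold change was 1.68 ± 0.42 without the libraries that stood apart (edgeR adjusted p = 0.0251). miR-673-5p and miR-673-3p, which were called with all libraries (-2.77 ± 0.68, edgeR adjusted p = 0.0133, and -2.73 ± 0.75, edgeR adjusted p = 0.0214), were not called without them (-1.08, edgeR adjusted p = 0.110, and -0.78, edgeR adjusted p = 0.290).

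Whether the WT change from P1 to P7 differed between models was tested in 1 fit of all 36 libraries. edgeR (0.258% of 775 miRNAs called) and DESeq2 called 0 members, with 0 of 19 at an unadjusted p under 0.05 (7.1%), so a difference was not shown. The median of the differences was -0.15, and 0.72 without the libraries that stood apart. The lowest p was that of miR-493-5p (-1.96 ± 1.18, edgeR adjusted p = 0.780), whose sign turned without the libraries that stood apart (0.21). Scaling by library totals alone moved the median over all miRNAs in WT P7 against P1 to -0.78 for Pkd2 and to -0.68 for Pkd1. Relative to those medians the members' medians of -2.50 and -2.83 were again lower.

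**Figure D2:**
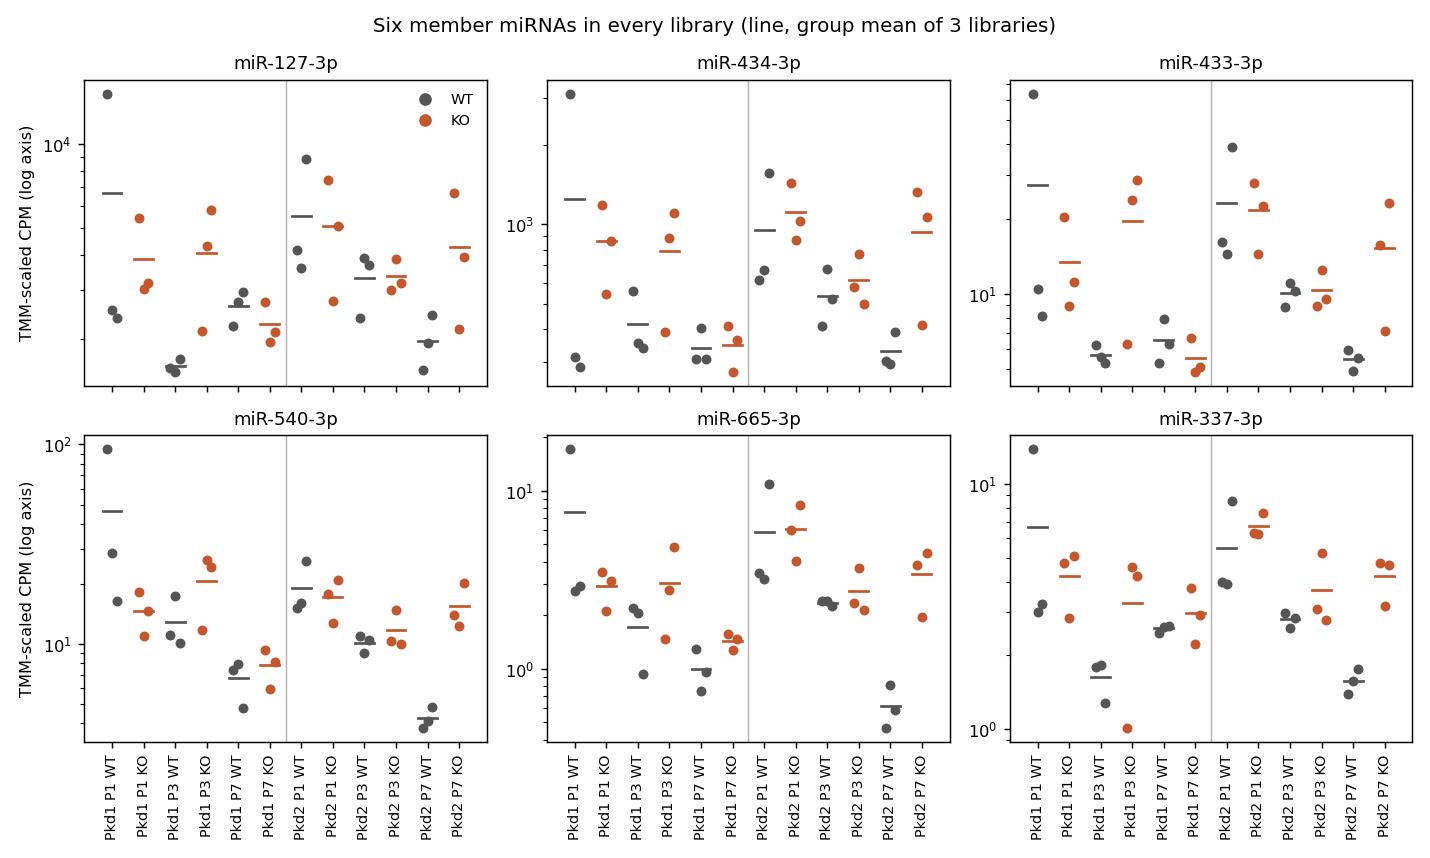
TMM-scaled CPM (log axis) of 6 member miRNAs in every library of the 12 groups, WT grey and KO orange; each point is a library and each line the mean of 3. The first Pkd1 P1 WT library is far above the other 2 in all 6 panels, and in Pkd2 at P7 the 3 KO libraries are above the 3 WT libraries for all but miR-127-3p.

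In the Pkd2 model at P7, members were higher in KO than in WT kidneys. All 19 had a positive log2 fold change, from 1.04 to 2.45 with a median of 1.35 (0.02 for all miRNAs), and 9 were called higher, beside 8.98% of 746 miRNAs. All 19 had an unadjusted p under 0.05, beside 29% of all miRNAs. In 12 members the 3 KO libraries were all above the 3 WT libraries, beside 14.3% of all miRNAs.

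The 4 members with the lowest adjusted p came from both kinds of hairpin. miR-540-3p was 3.79, 4.13 and 4.82 CPM in WT and 13.9, 12.3 and 20.3 in KO (log2 fold change 1.86 ± 0.27, edgeR adjusted p = 0.00151). All 3 KO libraries were well above WT. miR-665-3p was 0.464, 0.808 and 0.586 CPM in WT and 3.84, 1.96 and 4.45 in KO (2.45 ± 0.50, edgeR adjusted p = 0.0135). Its WT values rest on only 6, 17 and 13 reads. miR-337-3p was 1.39, 1.57 and 1.76 CPM in WT and 4.76, 3.18 and 4.67 in KO (1.42 ± 0.32, edgeR adjusted p = 0.0149). miR-127-5p, the minor arm of mir-127, was 14.5, 13.2 and 14.8 CPM in WT and 40.6, 25.2 and 42.3 in KO (1.35 ± 0.32, edgeR adjusted p = 0.0160). In each of these 4 the second KO library was the lowest KO library and still above WT on the TMM scale. Its TMM factor was 0.393, the lowest of all libraries, so its place depends on the scaling. As a share of all reads, members took 0.123% in it and 0.122%, 0.217% and 0.284% in the WT libraries, so that by this share it lay within WT.

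The other 5 called were miR-434-5p, miR-673-3p, miR-434-3p, miR-433-3p and miR-337-5p, with log2 fold changes from 1.16 to 1.51. miR-127-3p, the most abundant, was not called: it stood at 1536, 1928 and 2435 CPM in WT and at 6652, 2171 and 3942 in KO (1.11 ± 0.42, edgeR adjusted p = 0.0872). Its second KO library lay inside the WT range. Summed over members, the KO libraries held 8899, 3125 and 6006 CPM and the WT libraries 2155, 2540 and 3200, so that KO replicate 2 was again within WT.

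Lists for other tissues differed in the same libraries. The muscle list, all 7 of which passed the count minimum, summed to 24.1, 22.5 and 25.4 CPM in the P7 WT libraries and to 142, 34.8 and 86.2 in the KO libraries. The kidney tubule list summed to 101155, 101118 and 106180 CPM in WT and to 69352, 106048 and 56742 in KO, where replicate 2 was level with WT. The erythroid list ran from 2661 to 3316 CPM in WT and from 4354 to 6919 in KO, and the leukocyte list from 432 to 539 and from 527 to 694. In these lists KO replicate 2 was nearest to WT. The neural list summed to 336, 278 and 298 CPM in WT and to 310, 450 and 426 in KO, and the liver list to 3.64, 2.47 and 1.22 in WT and to 3.27, 18 and 5.32 in KO, with replicate 2 the farthest from WT in both. The endocrine list ran from 83.5 to 130 CPM in WT and from 103 to 154 in KO, the mesenchymal list from 6898 to 8067 and from 5248 to 7133, and the vascular list from 54239 to 85730 and from 52224 to 101917. miR-206-3p, a skeletal muscle miRNA, had 0, 1 and 7 reads in the WT libraries and 19, 2 and 10 in the KO libraries. The part of these cell types in the result was not tested.

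No library that stood apart was at P7. Without those of the other ages, which enter the fit but not the contrast, 17 members were called higher, all but miR-493-5p and miR-493-3p. The median was then 1.38, beside 0.04 for all miRNAs, and the share of all miRNAs called in that fit is not given here. The count of called members was sensitive to the P7 libraries themselves: it was 1 when WT replicate 3 or KO replicate 3 was dropped, 2 for WT replicate 2, and 14 for KO replicate 2. Scaled by library totals in place of TMM factors, the median was 1.46 (-0.02 for all miRNAs) and edgeR called 0 members. DESeq2, with its own size factors, called 15, with a median of 1.32 (-0.02 for all miRNAs). The share of all miRNAs called is not given here for either fit. miR-540-3p had an edgeR adjusted p of 0.0624 with library totals and passed in every fit that left out 1 P7 library.

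At P1 and P3 of the Pkd2 model, KO and WT did not separate. edgeR (0% of all miRNAs at either age) and DESeq2 called 0 members at both ages, and 0 of 19 had an unadjusted p under 0.05, beside 5.5% of all miRNAs at P1 and 1.47% at P3. The medians were -0.05 and 0.14 (-0.33 and 0.10 without the libraries that stood apart, with 0 calls). miR-337-3p, with the lowest p at P1, stood at 3.98, 3.92 and 8.51 CPM in WT and 6.31, 6.27 and 7.64 in KO (0.30 ± 0.29, edgeR adjusted p = 0.982), and miR-673-3p followed (-0.21 ± 0.28, edgeR adjusted p = 0.982). miR-673-3p, with the lowest at P3, had a log2 fold change of 0.53 ± 0.29 (edgeR adjusted p = 1.00), and miR-337-3p followed (0.40 ± 0.31, edgeR adjusted p = 1.00).

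The P7 WT libraries enter both the genotype comparison at P7 and the WT comparison of ages, so these 2 results share them. The KO effect was also compared between P7 and P1 in the same fit. It was larger at P7 for 1 member, miR-540-3p, by 2.01 ± 0.37 on the log2 scale (edgeR adjusted p = 0.0219), beside 0.402% of all miRNAs called in that direction. All 19 differences were positive, with a median of 1.32, and 13 had an unadjusted p under 0.05 (16.9% of all miRNAs). Without the libraries that stood apart edgeR called 0, the median was 1.74 and the miR-540-3p difference had an adjusted p of 0.0763. It was not called either when P1 WT replicate 3, P1 KO replicate 2, any P7 WT library or P7 KO replicate 3 was dropped. DESeq2 called 4 members, and its share of all miRNAs called is not given here. Within KO kidneys, edgeR (24.4% of all miRNAs called) and DESeq2 called 0 members between P1 and P7, 2 had an unadjusted p under 0.05 (37.8%) and the median was -0.26, or 0.39 without the libraries that stood apart, where all miRNAs had a median of 0.17. The lowest p values were those of miR-673-5p (-0.86 ± 0.35, edgeR adjusted p = 0.0863) and miR-337-3p (-0.67 ± 0.30, edgeR adjusted p = 0.116). These values were -0.0010 (edgeR adjusted p = 0.998) and -0.48 (edgeR adjusted p = 0.417) with those libraries left out.

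**Figure D3:**
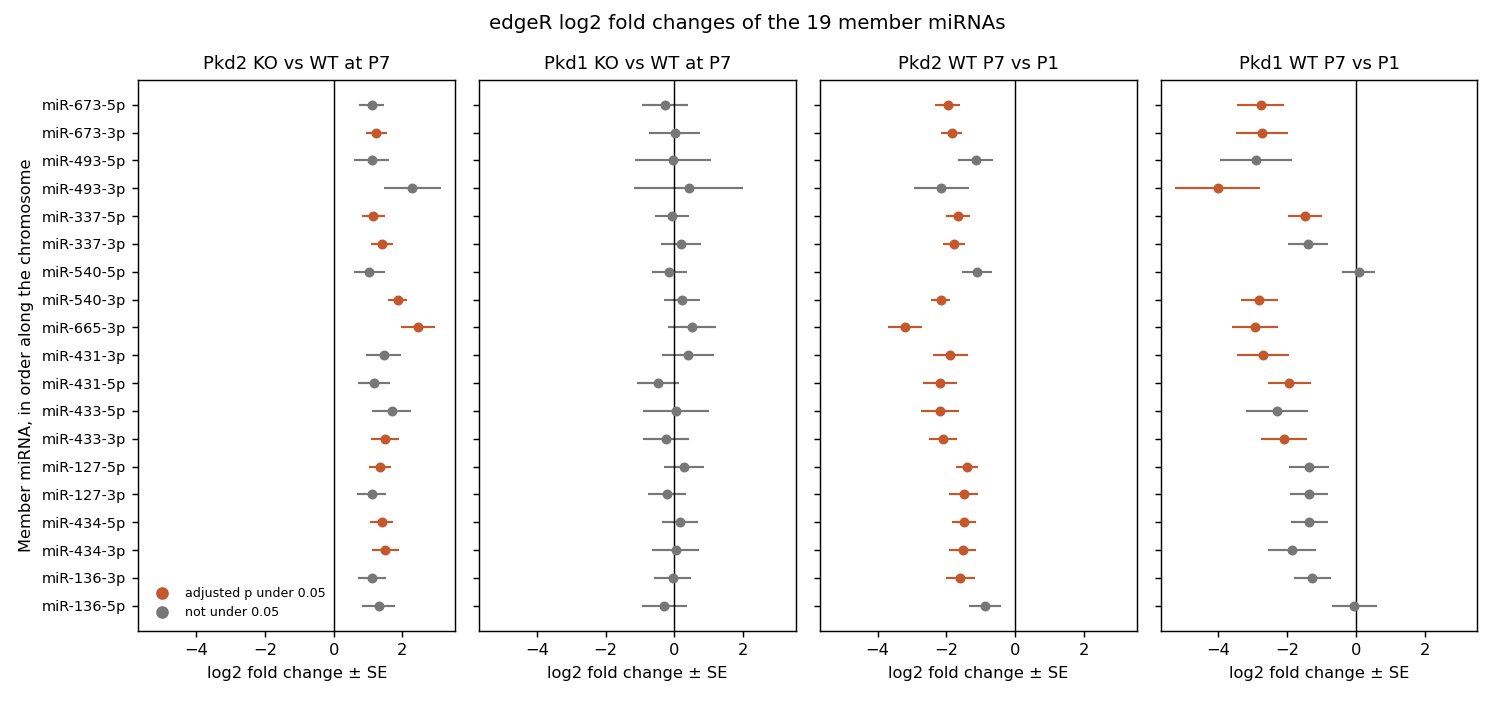
edgeR log2 fold changes with their standard errors for the 19 members, in chromosomal order, in 4 comparisons; orange points have an adjusted p under 0.05. Values for Pkd2 KO against WT at P7 lie right of 0 for all 19, those for Pkd1 scatter around 0, and those for WT P7 against P1 lie left of 0 for Pkd2.

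In the Pkd1 model no member was called between KO and WT at any age. At P7 edgeR (0.425% of 706 miRNAs called) and DESeq2 called 0, 0 of 19 had an unadjusted p under 0.05 (10.2%), and 10 values were above 0 and 9 below (median 0.01). miR-540-3p stood at 7.42, 7.97 and 4.80 CPM in WT and at 9.38, 5.96 and 8.12 in KO, and the groups overlapped. miR-431-5p had the lowest p, with a log2 fold change of -0.48 ± 0.61 (edgeR adjusted p = 0.914), followed by miR-665-3p (0.51 ± 0.69, edgeR adjusted p = 0.914).

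At P3, all 19 members had positive values in the Pkd1 model (median 1.13, 0.89 without the libraries that stood apart). edgeR (0% of all miRNAs) and DESeq2 called 0, 8 had an unadjusted p under 0.05 (9.07% of all miRNAs), and in 5 the KO libraries lay above WT (6.66% of all miRNAs). miR-431-5p was 34.1, 37.5 and 45.9 CPM in WT and 62.1, 134 and 183 in KO (1.69 ± 0.62, edgeR adjusted p = 0.464). miR-433-3p was 6.24, 5.59 and 5.26 CPM in WT and 6.28, 23.9 and 28.8 in KO (1.78 ± 0.66, edgeR adjusted p = 0.464). On the TMM scale KO replicates 2 and 3 were high and replicate 1 was near WT. The TMM factors of KO replicates 1 to 3 were 2.13, 0.659 and 1.95, so this order depends on the scaling. As a share of all reads, members took 0.369%, 0.256% and 0.465% in WT and 0.624%, 0.406% and 1.58% in KO. By that share KO replicate 2 lay within WT and KO replicate 1 above it. In the same libraries the endocrine list summed to 37.8, 273 and 423 CPM, against 16.8 to 23.6 in WT, and miR-202-5p, a miRNA best known from the gonads, had 2, 102 and 1141 reads against 0 in each WT library. The erythroid list summed to 1333, 3638 and 2685 CPM in KO against 1103 to 1269 in WT, and the muscle list to 28.8, 77.6 and 66.6 against 42.7, 16.5 and 16.1 in WT. On the TMM scale, KO replicates 2 and 3 were thus high in the endocrine, erythroid and muscle lists as well. The other lists overlapped WT, except the leukocyte list, at 275, 242 and 300 CPM in KO against 165 to 240 in WT. KO replicate 1 was highest in the mesenchymal list (6168, 3784 and 3931 CPM) and the vascular list (40433, 24181 and 26131). The neural list was at 174, 214 and 256 CPM in KO (208 to 256 in WT). The tubule list was at 40519, 44640 and 38935 (39615 to 51349), and the liver list at 6.32, 10.1 and 20.4. The part of these lists in the result was not tested. In the fit without the libraries that stood apart, which leaves out replicate 3, miR-431-5p was at 1.31 (edgeR adjusted p = 0.213) and miR-433-3p at 1.39 (edgeR adjusted p = 0.371).

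At P1 the direction in the Pkd1 model depended on the libraries that stood apart. All 19 values were below 0 with a median of -1.03. edgeR called 0 (0% of all miRNAs), DESeq2 called 1, and 6 had an unadjusted p under 0.05 (8.36% of all miRNAs). Without Pkd1 P1 WT replicate 1 and KO replicate 1, the median was 0.12 and 0 were called. miR-540-3p had the lowest p with all libraries (-1.68 ± 0.51, edgeR adjusted p = 0.334), followed by miR-673-3p (-1.97 ± 0.71, edgeR adjusted p = 0.440). With both those libraries and the others that stood apart left out they were at -0.88 (edgeR adjusted p = 0.630) and -0.34 (edgeR adjusted p = 0.839), and with only Pkd1 P1 WT replicate 1 left out at -0.63 and -0.0029. Within Pkd1 KO kidneys, 0 members were called between P1 and P7 by edgeR (17.1% of all miRNAs called) or DESeq2, 1 had an unadjusted p under 0.05 (31.6%), and in 10 the P7 libraries were all lower (22.8% of all miRNAs). The lowest p values were those of miR-337-5p (-1.20 ± 0.49, edgeR adjusted p = 0.108) and miR-431-5p (-1.30 ± 0.62, edgeR adjusted p = 0.162). Without the libraries that stood apart miR-337-5p was called lower at -1.11 ± 0.32 (edgeR adjusted p = 0.0440). Comparing the KO effect between P7 and P1 gave 0 calls by edgeR (0.142% of all miRNAs) and DESeq2, with 1 of 19 at an unadjusted p under 0.05 (12%), miR-540-3p (1.90 ± 0.72, edgeR adjusted p = 0.366), followed by miR-665-3p (1.91 ± 0.92, edgeR adjusted p = 0.415). These were 1.04 and 0.61 without the libraries that stood apart (edgeR adjusted p = 0.503 and 0.689). The median of that difference was 1.14 with all libraries and -0.27 without those that stood apart.

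The KO effects at P7 of the 2 models were compared in the fit of all 36 libraries. All 19 members had a smaller effect in Pkd1 than in Pkd2 (median difference -1.34), and 4 had an unadjusted p under 0.05, beside 12% of 775 miRNAs. edgeR (0.387% of all miRNAs called) and DESeq2 called 0. The lowest p values were those of miR-540-3p, with a difference of -1.65 ± 0.60 (edgeR adjusted p = 0.328), and miR-665-3p (-1.93 ± 0.89, edgeR adjusted p = 0.389). A difference between models at P7 was therefore not shown for any single member.

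**Figure D4:**
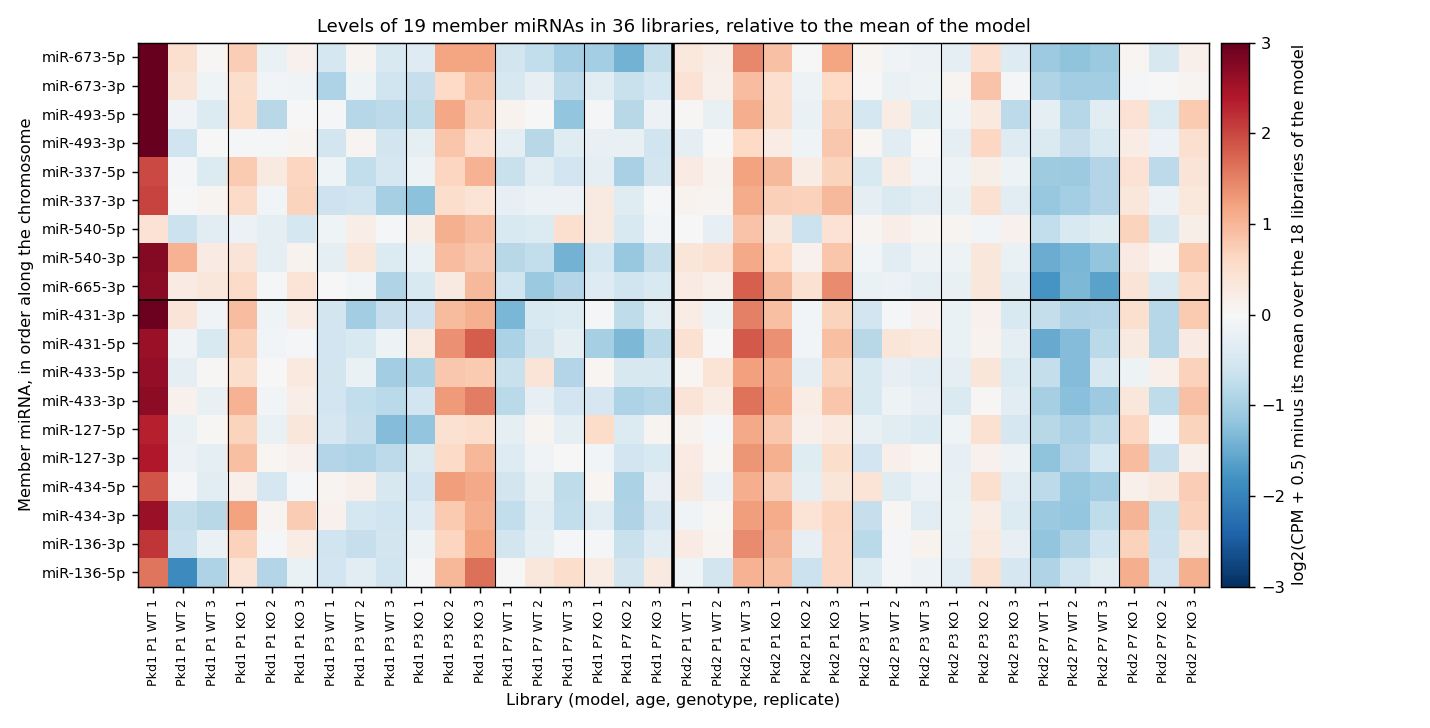
log2(CPM + 0.5) of the 19 members (rows, in chromosomal order) in the 36 libraries (columns), relative to the mean of the 18 libraries of the model; the colour scale ends at 3 in each direction. Some columns are nearly uniform in colour from top to bottom, red in Pkd1 P1 WT replicate 1 and blue in the 3 Pkd2 P7 WT libraries. Others, such as Pkd1 P1 WT replicate 2, are mixed. The horizontal line parts the hairpins between Meg3 and Rtl1 from those opposite Rtl1.

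Members moved together from library to library. Over the 36 libraries, each member's deviations from its group means in log2 CPM were set against the mean deviation of the members from other hairpins. Pearson's r ran from 0.718 (miR-540-5p) to 0.960 (miR-433-3p), with a median of 0.908, and the median was 0.840 over the 30 libraries left without those that stood apart. The points share libraries, depth and scaling factors, and the 3 lowest r were those of miR-540-5p, miR-493-3p and miR-433-5p, which also had the lowest median levels. The median log2 fold changes of the hairpins between Meg3 and Rtl1 and of those opposite Rtl1 were 1.24 and 1.38 for Pkd2 KO against WT at P7, -1.84 and -1.56 for Pkd2 WT P7 against P1, and -1.10 and -0.79 for Pkd2 WT P7 against P3. In Pkd1 WT they were -2.16 and -1.90 for P3 against P1 and -2.77 and -1.62 for P7 against P1. Differences between the 2 kinds of hairpin were not tested.

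The miRNAs outside the 10 hairpins with the most similar pattern also came from the interval. Among 756 ranked by r over the 36 libraries, the first 38 belonged to the rest of the Dlk1-Dio3 interval. The leading 5 were miR-300-3p (0.977), miR-369-3p (0.973), miR-487b-3p (0.957), miR-380-3p (0.953) and miR-381-3p (0.952), and the median over all ranked was -0.02. The first from elsewhere was miR-133a-3p, a striated muscle miRNA, at 0.812. Over the 30 libraries without those that stood apart its r was 0.762. It was then again the first from elsewhere, after 34 miRNAs of the interval.

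The rest of the interval was described with the same fits. In Pkd2 at P7, 33 of 68 of its miRNAs were called higher in KO, with a median log2 fold change of 1.51, beside the members' 9 of 19 and 8.98% of all miRNAs. From P1 to P7 in WT, 56 of 68 were called lower for Pkd2 and 21 of 61 for Pkd1, beside 16.9% and 11.2% of all miRNAs. Without the libraries that stood apart these 3 counts became 45, 37 and 3, and the shares of all miRNAs called in those fits are not given here. None was called between KO and WT at P7 in the Pkd1 model, where the median was 0.14.

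The 2 arms of a hairpin were compared within each library as the 3p share of the reads of both, a ratio that the scaling factors do not touch. The 3p arm held most reads of mir-127 (median share 99.1%), mir-136 (72.1%), mir-433 (90.9%), mir-434 (77.9%), mir-540 (91.2%) and mir-665 (100%), and the 5p arm most of mir-337 (3p share 13.4%), mir-431 (4.10%), mir-493 (17.4%) and mir-673 (14.7%). A total of 8 hairpins had at least 50 reads in every library compared and were tested with an exact two-sided permutation test within models, where 400 arrangements allow a smallest p of 0.005.

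The 3p share fell with age in 2 hairpins, mir-136 and mir-540. For mir-136 the Pkd1 WT libraries stood at 82.7%, 89.1% and 84.8% at P1 and at 69.2%, 68.2% and 68.7% at P7, and the Pkd2 WT libraries at 74.3%, 77.6% and 74.3% and at 64.7%, 64.5% and 64.7%. No P7 library reached a P1 library of its model. The mean change was -13.8 points (exact permutation p = 0.005, adjusted p = 0.0310), beside 22.4% of 192 hairpins with an adjusted p under 0.05. The count of 2 among the 8 member hairpins tested is close to that background and is no result about the members as a group. The P7 shares rest on 1351 to 4670 reads, and the widest 95% Wilson interval among them ran from 66.7% to 71.6%, covering counting error only.

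For mir-540 the share went from 97.6% ± 1.46 (SD, n = 3) to 86.9% ± 10.1 in Pkd1 WT and from 91.9% ± 1.79 to 84.1% ± 1.62 in Pkd2 WT (mean change -9.22 points, exact permutation p = 0.005, adjusted p = 0.0310). The P7 values rest on 57 to 133 reads. One Pkd1 P7 library was far below the other 2, at 75.2% with a 95% Wilson interval of 67.2% to 81.8%, against 92.6% and 92.8%. Without the libraries that stood apart the changes were -14.8 and -9.45 points, and with fewer arrangements the adjusted p was 0.0738 and 0.128. The mean changes over both models of the other 6 hairpins ran from -0.97 to 1.18 points and were not called. Such a mean can hide opposite changes: the mir-431 share went from 7.35% ± 0.583 to 4.39% ± 1.22 in Pkd1 WT and from 3.44% ± 0.0205 to 4.44% ± 1.40 in Pkd2 WT.

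Between KO and WT at P7 no arm share was called, in members or in any of the 193 hairpins tested (0%). At an unadjusted p under 0.05 there was 1 member: mir-337, whose 3p share went from 18.3% ± 1.57 (SD, n = 3) to 21.1% ± 0.713 in Pkd1 and from 11.6% ± 0.724 to 14.5% ± 3.35 in Pkd2 (mean 2.80 points, exact permutation p = 0.005, adjusted p = 0.241). The mir-540 share was 90.4% ± 4.70 in Pkd2 KO and 84.1% ± 1.62 in WT, and the mir-136 share 62.9% ± 5.08 and 64.7% ± 0.123. The age difference in mir-136 was thus not matched by a called difference between genotypes.

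**Figure D5:**
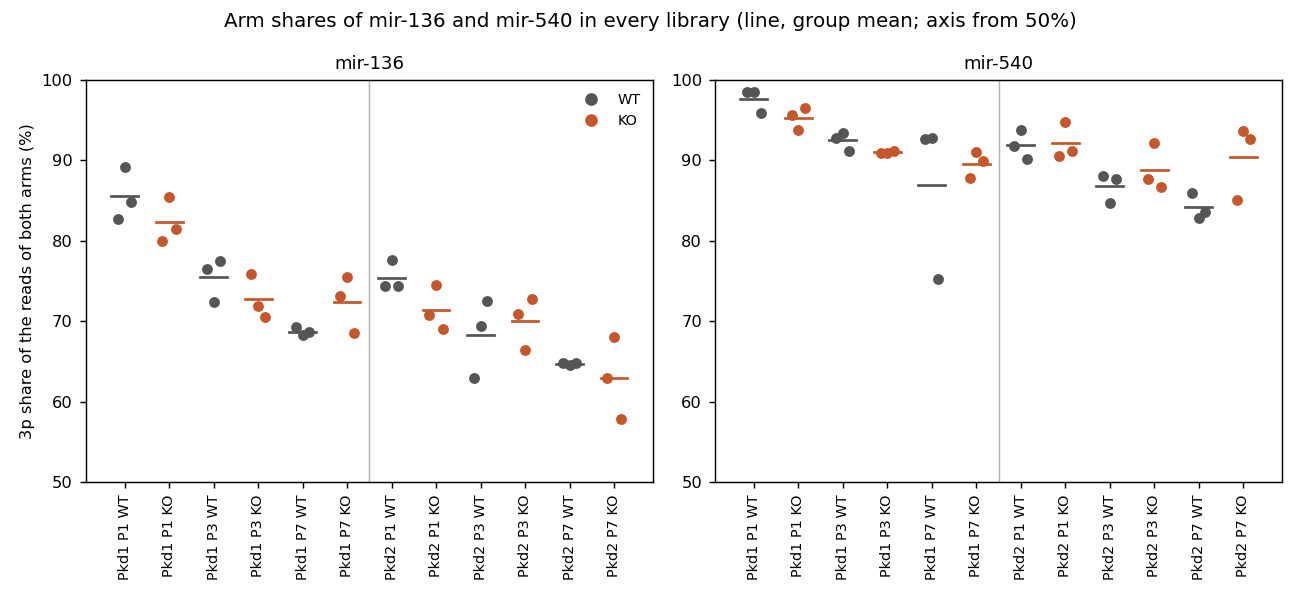
3p share of the reads of both arms (%), with an axis from 50%, for mir-136 and mir-540 in every library of the 12 groups, WT grey and KO orange; each point is a library and each line the mean of 3. In WT, the mir-136 share is lower at P7 than at P1 in both models, without overlap.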

How the data were processed

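Small RNA reads of 36 kidney libraries were trimmed of adaptors and filtered on length by the authors. Their methods name miRDeep2 with miRBase, while their processing notes name mm10, CASAVA 1.8.2 and HTSeq. Which of these tools made the deposited counts is not certain. The authors deposited raw read counts per pair of mature miRNA and hairpin, as whole numbers. Counts of the 83 mature miRNAs listed under several hairpins were taken once, from the row with the highest total; no member was among them. miRNAs reaching 10 counts in 3 or more libraries of a model were fitted with edgeR 4.0.16 (TMM factors, quasi-likelihood F-test, 1 term per group, 18 libraries a model) and adjusted by Benjamini-Hochberg over all miRNAs tested. DESeq2 1.42.0, other scalings, no filter, a replicate block and left-out libraries were alternatives. The shares of all miRNAs called in these alternatives are not given, so their counts of members have no background beside them. Log2 CPM used a prior count of 2. The scripts were tested on simulated data. Arm shares were compared by exact permutation of genotype or age within models. The members and lists were chosen with earlier results of these data known. For each comparison, up to 4 members by adjusted p are named where there were calls, and up to 2 by unadjusted p otherwise. Sequences are from RefSeq (GRCm38.p6).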

Additional observations from a re-analysis of the deposited data

Results flagged for a closer look

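One result met a rule for a difference between groups. In the Pkd2 model, the KO effect on miR-540-3p was 2.01 higher on the log2 scale at P7 than at P1 (SE 0.37; edgeR adjusted p = 0.0219, with a range of 0.000152 to 0.653 over the alternatives). Levels were 15.1, 16.1 and 26.1 CPM in P1 WT, 17.9, 12.7 and 21 in P1 KO, 3.79, 4.13 and 4.82 in P7 WT, and 13.9, 12.3 and 20.3 in P7 KO. The groups overlapped at P1 and did not at P7.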

How the results depend on the processing

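Of the 19 members, the numbers called moved by more than 1.5 times under these settings. The shares of all miRNAs called under them are not given here. Scaling by library totals gave 0 (from 9) for Pkd2 KO against WT at P7, where the rest of the interval gave 1 (from 33). It gave 0 (from 12) for Pkd1 WT P3 against P1, 16 (from 9) for Pkd1 WT P7 against P1 with 44 (from 21) in the rest of the interval, and 2 (from 0, both lower) for Pkd1 WT P7 against P3. It gave 7 and 4 (from 0) for Pkd1 and Pkd2 KO P7 against P1, 0 (from 2) for Pkd2 WT P7 against P3 and 0 (from 1) for the Pkd2 KO effect at P7 against P1. With library totals the medians were -1.95 for members and -1.16 for all miRNAs in Pkd1 KO P7 against P1. In Pkd2 KO they were -1.07 and -0.97, and in Pkd1 WT P7 against P3 -1.14 and -1.27. Members and all miRNAs thus had close medians in Pkd2 KO and in Pkd1 WT P7 against P3. DESeq2 gave 15 for Pkd2 KO against WT at P7, 14 for Pkd1 WT P7 against P1, 4 for Pkd2 WT P7 against P3, 4 for the Pkd2 difference of KO effects, and 1 each for Pkd1 KO against WT at P1 and Pkd2 WT P3 against P1. Fitting the compared libraries alone gave 0 for Pkd1 WT P3 against P1, 1 (rest of the interval 2) for Pkd1 WT P7 against P1, 2 (both higher) for Pkd1 WT P7 against P3, 10 for Pkd1 KO P7 against P1 and 5 for Pkd2 WT P7 against P3. Without the 6 libraries that stood apart the counts were 17 for Pkd2 KO against WT at P7, 4 for Pkd2 WT P7 against P3, 0 for the Pkd2 difference of KO effects, 0 for Pkd1 WT P3 against P1, 3 (2 lower and 1 higher; rest of the interval 3) for Pkd1 WT P7 against P1, 1 for Pkd1 KO P7 against P1, and 37 (from 56) in the rest of the interval for Pkd2 WT P7 against P1. Hairpins with a changed arm share went from 2 to 1 with at least 200 reads and to 0 without those libraries. The cause was not tested. Relative log expression factors and no filter moved none of these counts by more than 1.5 times.

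Same-numbered WT and KO libraries had correlations of deviations from -0.480 to 0.507, so the numbers were not taken to pair the libraries. With the replicate number as a block, 3 members were called for Pkd1 WT P3 against P1, 3 for Pkd1 WT P7 against P1 (rest of the interval 8) and 9 for Pkd2 KO against WT at P7.

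Leaving out 1 library gave 1 to 14 for Pkd2 KO against WT at P7 (rest of the interval 1 to 44), 11 to 16 for Pkd2 WT P7 against P1 (35 to 56), 2 to 17 for Pkd1 WT P7 against P1 (3 to 33), 0 to 16 for Pkd1 WT P3 against P1, and 0 to 1 for Pkd2 WT P7 against P3, Pkd2 KO P7 against P1, the Pkd2 difference of KO effects and Pkd1 KO against WT at P1. Arm shares gave 1 to 2. The sign turned for miR-127-3p in Pkd1 WT P7 against P3 with library totals (-0.50). The median of all miRNAs was -1.27 in that setting, so miR-127-3p stayed above that median. For miR-673-3p in Pkd2 KO against WT at P1 it turned with library totals (0.023) and over a range of -0.39 to 0.062 with 1 library left out. For miR-493-5p in the WT age change of Pkd1 minus Pkd2, it turned without the libraries that stood apart (0.21) and over a range of -2.60 to 0.87. Members with about 1 CPM or less, such as miR-493-3p, and miR-665-3p in P7 WT, rest on few reads.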
